A study of Homo sapiens with 6 samples.

Results

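The kinesin and dynein motor genes were taken as every gene whose symbol follows the KIF pattern (KIF, a number or C, and an optional letter) or begins with DYNC or DYNL, with at least 20 counts summed over the 6 libraries. The rule found 44 genes, of 12763 symbols that reached that total and 65746 listed. By role they were divided into 14 mitotic kinesins, 14 transport kinesins, 5 ciliary and other kinesins, and 11 dynein genes, of which 9 encode subunits of cytoplasmic dynein 1 or light chains shared with other complexes and 2 encode subunits of dynein 2. The libraries came from SU-DHL-8, a human diffuse large B cell lymphoma (DLBCL) line labelled WT. The cells had been exposed for 24 h to 100 nM erianin, a bibenzyl compound found in Dendrobium orchids, or to an equal amount of DMSO, its solvent. Each group held 3 RNA-seq libraries, so the question was which motor genes differed in RNA level between erianin and DMSO. The labels name replicate experiments but not separate cultures, so each p-value reflects how far the libraries of a group spread, part of which may be technical.

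Kinesins are ATP-driven motors that mostly walk toward the plus ends of microtubules, whereas cytoplasmic dynein walks toward the minus ends with dynactin as its cofactor. A group of kinesins is made for mitosis, when they build the spindle, move chromosomes and complete cytokinesis, and many of their genes are transcribed mainly in G2 and M phase. Other kinesins and dynein 1 carry vesicles, organelles and RNA in interphase, and kinesin-2 with dynein 2 serves transport within cilia.

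Libraries held 32844464 to 35307027 counts with erianin and 30956443 to 35588728 counts with DMSO. Levels are given as CPM, counts relative to a library total that was scaled by TMM, in the order of replicates 1, 2 and 3. DMSO replicate 1 stood apart, with a biological coefficient of variation of 0.291 and 0.294 against the other DMSO libraries, where other pairs within a group had 0.0336 to 0.0815. Among the 41 motor genes that could be tested, DMSO replicate 1 was the highest of the 6 libraries for 19 and the lowest for 6, against 34.0% and 31.7% of all genes tested. Its log2 ratio to the mean of the other DMSO libraries followed GC content over those 41 genes (Pearson r = -0.63, Spearman rho = -0.62, a description across genes that share a library), with a median GC of 42.3% where it was highest and 52.1% where it was lowest. Results that rest on it are given with and without it. All 6 B cell markers reached 1 CPM in every library and summed to 2286 to 2559 CPM with erianin and 2703 to 3729 CPM with DMSO. Of the 6 T cell markers CD3G and CD2 were at 0 and the list summed to 1.45 to 2.196 CPM with erianin and 3.0 to 3.75 CPM with DMSO. The 6 myeloid markers summed to 9.42 to 10.6 CPM with erianin and 4.30 to 7.27 CPM with DMSO with S100A8 at 0. The 6 stromal and epithelial markers summed to at most 0.328 CPM with erianin and 0.247 CPM with DMSO with EPCAM at 0.

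Motor genes moved in both directions. With all 6 libraries, 13 of 41 motor genes passed an adjusted p of 0.05 in the quasi-likelihood test of edgeR, 5 of them higher and 8 lower with erianin. Of the 11550 genes tested 24.2% passed (11.8% higher and 12.3% lower). Of the mitotic kinesins 1 of 13 rose and 6 fell, and the median log2 fold change (erianin over DMSO) was -0.36, beside 0.00 over all genes tested, to 2 decimals. Of the transport kinesins 2 of 13 rose and 1 fell (median -0.06). Of the ciliary and other kinesins 1 of 5 fell and 4 did not pass (median -0.26), and of the dynein genes 2 of 10 rose and 8 did not pass (median 0.19). Without DMSO replicate 1 all 13 genes passed again in the same direction and 25 of 42 tested passed, 12 higher and 13 lower. Of all genes 55.3% then passed (27.8% higher and 27.4% lower). With offsets for the GC content and length of genes in all 6 libraries 19 of 41 motor genes passed, 8 higher and 11 lower, beside 35.2% of all genes (17.5% higher and 17.6% lower). The mitotic and dynein medians kept their sign under every scaling, filter and library left out that was tried. The transport median turned positive under upper-quartile scaling (0.03), total counts (0.05) and on the TPM scale (0.19 and 0.20), where the median of all genes was 0.08, 0.11, 0.20 and 0.28 and so lay above it. With sample quality weights it was 0.03, beside 0.01 for all genes, and without DMSO replicate 1 it was 0.13, beside 0.03 for all genes. With the offsets it was 0.00, beside 0.01. The ciliary and other median was 0.01 on both TPM scales. Scaling also moved the split of calls over all genes: 1368 higher and 1423 lower with TMM, 1763 and 1093 with upper-quartile scaling, 1840 and 918 with total counts, and 1408 and 262 on log2(TPM + 1). For the motor genes the split was 5 higher and 8 lower with TMM, 6 and 6 with both upper-quartile scaling and total counts, and 7 and 2 on log2(TPM + 1). The TPM fits added no scaling of libraries. In the TPM column of DMSO replicate 1 the listed genes hold 39.2% of the total that TPM is scaled to, against 63.6% to 66.7% elsewhere. Fold changes and lost calls on the TPM scales therefore include that difference between libraries. These are bulk libraries, so fewer cells in a stage of the cycle and less RNA per cell cannot be told apart.

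**Figure D1:**
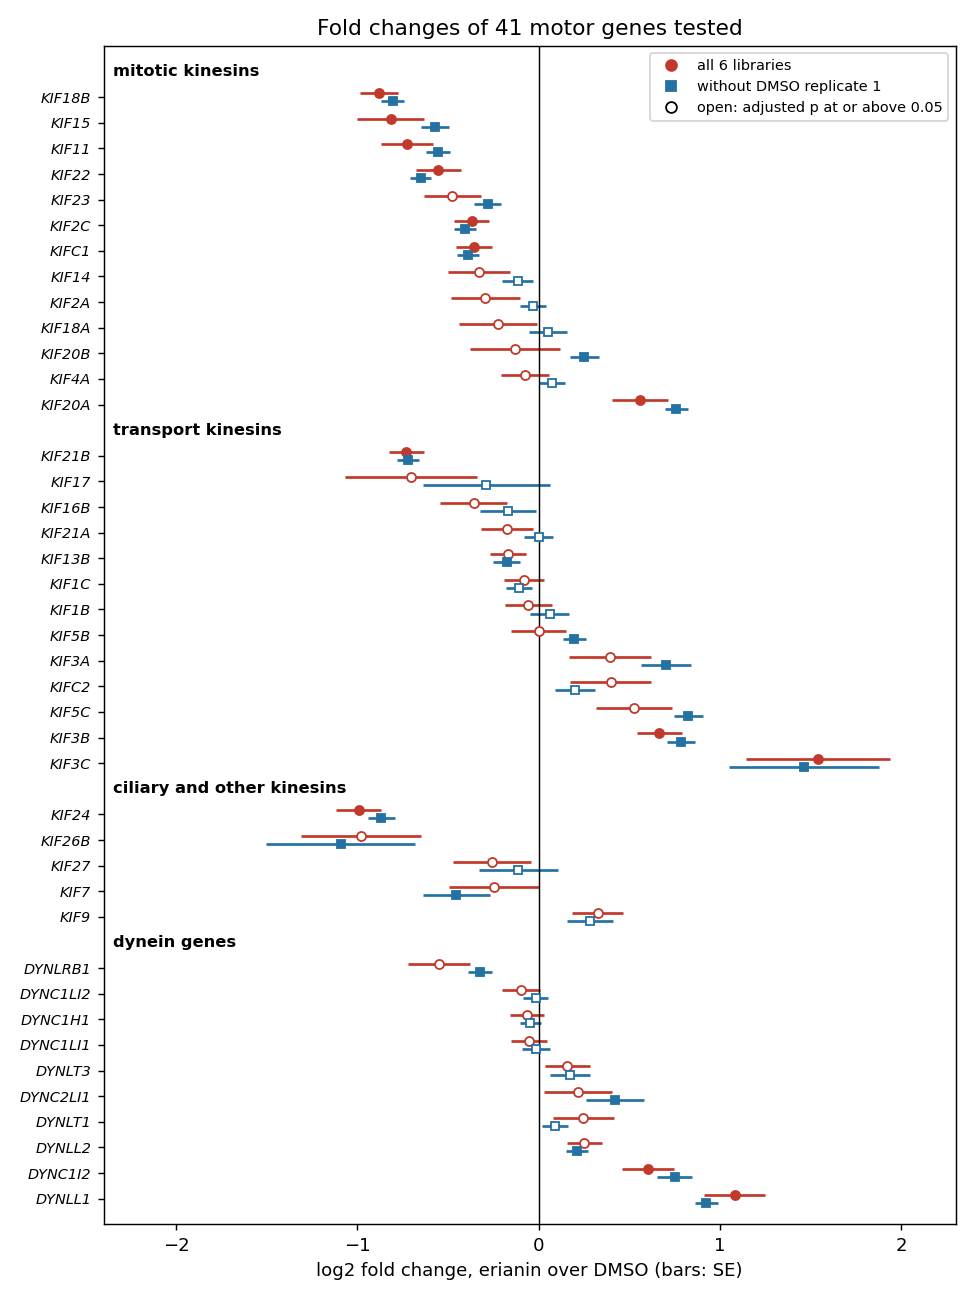
Log2 fold change, erianin over DMSO (x axis, bars are the standard error), of the 41 motor genes tested, ordered by size within each class. Filled symbols passed an adjusted p of 0.05, 13 genes with all 6 libraries (circles), and 25 of 42 tested without DMSO replicate 1 (squares). KIF5A, 1 of these 42 and 1 of the 25 that passed, did not pass the filter with all 6 libraries and is not drawn.

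The mitotic kinesins are the class for which a promoter motif shared among cell cycle genes has been described, so the sequences of genes that moved in opposite directions are shown here. The motif is the cell cycle genes homology region (CHR), searched as TTTGAA or TTCGAA on either strand, with TTCGAA a less common form. It is known to bind the DREAM and MuvB complexes, which repress such genes in resting cells and activate them in G2 and M phase. CCAAT boxes, bound by NF-Y, lie near it in many of these promoters and were searched as CCAAT on either strand. In the RefSeq windows (GRCh38.p14, 250 bases before to 50 after the first start listed for a gene), 37 of 44 members had an entry. The CHR letters stood in 11 of 14 mitotic kinesin windows (78.6%), against 16.6% of all 27305 windows. They stood in 1 of 10 transport, 1 of 3 ciliary and other and 0 of 10 dynein windows. CCAAT stood in 11 of 14 mitotic kinesin windows, against 35.7% of all windows. It stood in 3 of 10 transport, 1 of 3 ciliary and other and 2 of 10 dynein windows. Both stood in 10 of 14 mitotic windows (71.4%), against 6.58% of all. Among the 6 mitotic kinesins that fell the CHR letters stood in 5, and among the 6 tested that did not pass also in 5, so their presence did not separate these groups. KIF20A, the mitotic kinesin that rose, had 2 CCAAT boxes and no CHR letters in this window.
The 150 bases before the start follow for KIF20A, for 3 mitotic kinesins that fell, and for KIF3B and DYNLL1, which rose, with CHR or CCAAT letters in capitals (ATTGG is CCAAT and TTCAAA is TTTGAA read on the other strand).
KIF20A (chr5:138178962-138179111, plus strand): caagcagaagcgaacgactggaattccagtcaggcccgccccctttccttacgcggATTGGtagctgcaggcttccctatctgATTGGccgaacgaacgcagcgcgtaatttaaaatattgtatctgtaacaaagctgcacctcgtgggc
KIF18B (chr17:44947774-44947923, minus strand): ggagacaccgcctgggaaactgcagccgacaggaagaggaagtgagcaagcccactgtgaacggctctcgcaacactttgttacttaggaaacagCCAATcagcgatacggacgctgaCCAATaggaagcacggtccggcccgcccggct
KIF11 (chr10:92592980-92593129, plus strand): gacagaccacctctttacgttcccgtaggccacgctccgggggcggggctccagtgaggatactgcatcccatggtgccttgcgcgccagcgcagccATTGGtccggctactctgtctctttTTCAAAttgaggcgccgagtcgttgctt
KIF22 (chr16:29790601-29790750, plus strand): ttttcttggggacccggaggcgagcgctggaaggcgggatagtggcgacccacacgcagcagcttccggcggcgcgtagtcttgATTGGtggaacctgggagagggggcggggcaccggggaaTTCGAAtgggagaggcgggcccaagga
KIF3B (chr20:32277501-32277650, plus strand): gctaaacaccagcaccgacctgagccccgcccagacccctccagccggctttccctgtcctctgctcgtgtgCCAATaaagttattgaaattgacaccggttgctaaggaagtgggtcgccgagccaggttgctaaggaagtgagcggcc
DYNLL1 (chr12:120469692-120469841, plus strand): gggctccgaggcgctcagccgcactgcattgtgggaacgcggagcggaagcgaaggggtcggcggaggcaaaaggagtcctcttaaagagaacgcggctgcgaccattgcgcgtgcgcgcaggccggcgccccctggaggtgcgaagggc
KIF18B has a CHR match just after its start, outside the stretch shown. A match is a string of letters and not a shown binding site, and the window does not say which start these cells use.

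Spindle assembly motors were among the genes that fell. KIF11 (Eg5, chr10:92593286-92655395, plus strand), the bipolar motor that slides antiparallel microtubules apart and so separates the spindle poles, had 98.6, 104 and 91.9 CPM with erianin, against 196, 145 and 147 CPM with DMSO. KIF15 (chr3:44761717-44873376, plus strand), which can hold the poles apart when KIF11 is blocked, had 56.6, 54.2 and 47.5 CPM with erianin, against 120.3, 79.3 and 79.2 CPM with DMSO. For both genes every erianin library lay below every DMSO library, and DMSO replicate 1 was the highest of the 6. KIF11 fell by 0.73 on the log2 scale (-0.73 ± 0.14 SE, adjusted p = 0.013) and by 0.56 without DMSO replicate 1. KIF15 fell by 0.82 (-0.82 ± 0.18 SE, adjusted p = 0.020) and by 0.57 without it. Both calls were lost when any 1 erianin library was left out, with an adjusted p of at most 0.071 for KIF11 and 0.088 for KIF15. The call of KIF11 was also lost on the TPM scale. The ratio of KIF11 to KIF15 counts was 1.74, 1.92 and 1.93 with erianin and 1.63, 1.82 and 1.85 with DMSO, and these ranges overlapped (exact permutation test, two-sided p = 0.5).

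KIFC1 (HSET, chr6:33391536-33409924, plus strand), a minus-end directed kinesin that focuses spindle poles and clusters extra centrosomes, had 254, 253 and 276 CPM with erianin and 313, 353 and 339 CPM with DMSO. KIF2C (MCAK, chr1:44739818-44767767, plus strand), which takes tubulin off microtubule ends and corrects faulty attachments to kinetochores, had 254, 238 and 245 CPM with erianin and 295, 335 and 321 CPM with DMSO. The groups did not overlap for either gene, and the step was small: -0.36 ± 0.10 SE (adjusted p = 0.037) for KIFC1 and -0.37 ± 0.10 SE (adjusted p = 0.031) for KIF2C. These calls were the least stable of the 13, passing in 9 and 8 of 20 alternatives. Both were kept with DESeq2 size factors, and lost with upper-quartile scaling, with total counts, on the TPM scales, with no filter other than 1 count, with the replicate block and whenever a library other than DMSO replicate 1 was left out. KIF2A, the other kinesin-13 measured, had 71.3, 67.4 and 63.9 CPM with erianin and 109, 70.3 and 69.1 CPM with DMSO, overlapping ranges, and did not pass (-0.29 ± 0.19 SE, adjusted p = 0.30, and -0.03 without DMSO replicate 1). The KIF2C to KIF2A ratio was 3.56, 3.53 and 3.83 with erianin and 2.704, 4.77 and 4.65 with DMSO, with DMSO replicate 1 below and the other DMSO libraries above all erianin libraries.

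Of the kinesin-8 motors KIF18B fell, and so did the chromokinesin KIF22. KIF18B (chr17:44924709-44947711, minus strand), a kinesin-8 that shortens astral microtubules, had 134, 135 and 149.9 CPM with erianin, against 279, 246 and 246 CPM with DMSO. All erianin libraries lay far below the lowest DMSO library. The fall was -0.88 ± 0.11 SE with an adjusted p of 0.0028 and -0.80 without DMSO replicate 1, and the call was lost only on the TPM scales (adjusted p = 0.059 and 0.064). On log2(TPM + 1) 2.27% of all genes were called lower, beside 12.3% with TMM. KIF18A, the kinesin-8 that damps chromosome oscillation at the metaphase plate, had 26.1, 22.3 and 19.8 CPM with erianin and 35.3, 23.5 and 20.8 CPM with DMSO, overlapping ranges that did not pass (-0.22 ± 0.22 SE, adjusted p = 0.49), with a fold change of the other sign without DMSO replicate 1 (0.05). The ratio of KIF18B to KIF18A counts was 5.15, 6.03 and 7.58 with erianin and 7.91, 10.5 and 11.9 with DMSO. Every erianin ratio was below every DMSO ratio (log2 difference -0.69, exact permutation p = 0.1, the smallest that 3 libraries against 3 allow, and 0.183 adjusted over the 11 pairs of related motors compared). KIF22 (Kid, chr16:29790719-29805385, plus strand), a chromokinesin that pushes chromosome arms away from the poles, had 263, 256 and 276 CPM with erianin and 328, 423 and 416 CPM with DMSO, with DMSO replicate 1 the lowest DMSO library and still above all erianin libraries. It fell by 0.55 on the log2 scale (adjusted p = 0.019) and by 0.65 without DMSO replicate 1. The call was lost on the TPM scale and when any library other than DMSO replicate 1 was left out (adjusted p at most 0.10). KIF4A, the chromokinesin that also acts at the spindle midzone with PRC1, had 69.4, 65.8 and 66.1 CPM with erianin and 83.4, 66.7 and 62.0 CPM with DMSO and did not pass (-0.08 ± 0.13 SE, and 0.07 without DMSO replicate 1). KIF4B, a near-identical intronless copy of KIF4A, had 25 counts in all, and reads may be split between the pair. It was tested only in the fit with no filter other than 1 count.

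Of the kinesin-6 motors KIF20A rose, and KIF23 and KIF20B did not pass with all 6 libraries. KIF20A (MKLP2, chr5:138178719-138187715, plus strand), the kinesin-6 that carries the chromosomal passenger complex to the spindle midzone for cytokinesis, had 174, 162 and 163 CPM with erianin, against 139.9, 99.5 and 98.6 CPM with DMSO. All erianin libraries were above all DMSO libraries, of which DMSO replicate 1 was nearest to them. The log2 fold change was 0.56 ± 0.15 SE (adjusted p = 0.037) and 0.76 without DMSO replicate 1 (adjusted p = 3.4e-10). It was not called when any of the other 5 libraries was left out (adjusted p at most 0.13). KIF23 (MKLP1), the motor subunit of the centralspindlin complex, had 53.0, 55.3 and 49.1 CPM with erianin and 90.7, 64.1 and 64.5 CPM with DMSO, with lower values in every erianin library (-0.48 ± 0.16 SE, adjusted p = 0.064). It passed without DMSO replicate 1 (-0.28, adjusted p = 0.0022). KIF20B (MPP1), which acts late in cytokinesis, had 38.9, 39.8 and 41.02 CPM with erianin and 63.4, 32.4 and 35.3 CPM with DMSO. Its direction turned on 1 library: -0.13 with all libraries (adjusted p = 0.74) and 0.25 without DMSO replicate 1 (adjusted p = 0.0089). Within a library, KIF20A held 3.28, 2.93 and 3.31 counts per KIF23 count with erianin and 1.54, 1.55 and 1.53 with DMSO, where DMSO replicate 1 sat with the other DMSO libraries (log2 difference 1.04, exact permutation p = 0.1). The KIF20A to KIF20B ratio was 4.46, 4.07 and 3.97 with erianin and 2.21, 3.08 and 2.80 with DMSO, also without overlap (log2 difference 0.64, exact permutation p = 0.1). KIF14, which brings citron kinase to the midbody, had 29.3, 31.5 and 26.8 CPM with erianin and 46.4, 31.8 and 32.0 CPM with DMSO, slightly lower in every erianin library but not past the test (-0.33 ± 0.17 SE, adjusted p = 0.20, and -0.12 without DMSO replicate 1).

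**Figure D2:**
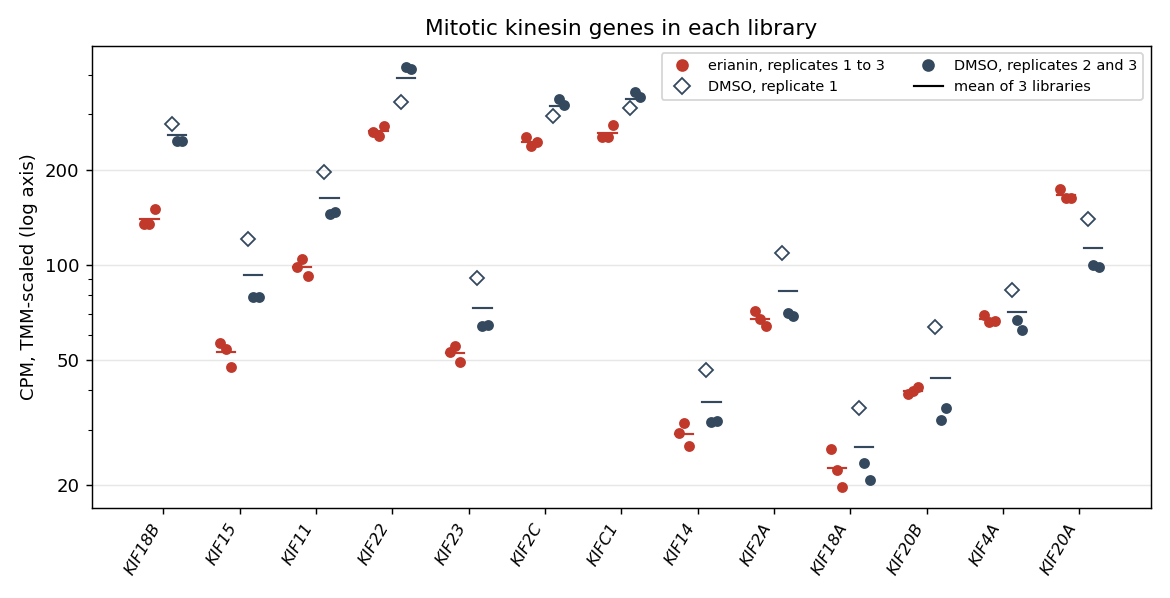
TMM-scaled CPM (log axis) of the 13 mitotic kinesins tested, in each erianin library (red) and each DMSO library (blue, with replicate 1 as an open diamond), with lines at group means. KIF20A lies above DMSO in all erianin libraries and KIF18B, KIF15, KIF11, KIF22, KIF23, KIF2C, KIFC1 and KIF14 below it.

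In all, 1 mitotic kinesin was higher and 8 were lower in every erianin library than in every DMSO library, where 23.6% and 23.1% of all genes tested were. Over all motor genes 9 were higher and 13 lower in this sense, 22 of 41, beside 46.8% of all genes tested. Genes that work with these motors gave 1 of 17 higher and 4 lower (median -0.20), 5 called beside 24.2% of all genes. The chromosomal passenger complex, which KIF20A carries, had lower RNA for its scaffold INCENP, 147, 151 and 165 CPM with erianin against 399, 315 and 294 CPM with DMSO (-1.12 ± 0.14 SE, adjusted p = 0.0030). Its subunit borealin (CDCA8) had 139.9, 139.7 and 144 CPM with erianin against 197, 217 and 208 CPM with DMSO (-0.56 ± 0.09 SE, adjusted p = 0.0071). The kinase AURKB also fell (-0.45, adjusted p = 0.022). BIRC5, a further subunit of the complex, did not pass (0.09, adjusted p = 0.78, and -0.10 without DMSO replicate 1). CIT, the kinase that KIF14 binds, fell (-0.81, adjusted p = 0.025, and -0.52 without DMSO replicate 1). AURKA, the spindle pole kinase, rose, with 317, 324 and 297 CPM with erianin against 233, 208 and 202 CPM with DMSO (0.55 ± 0.10 SE, adjusted p = 0.010). CENPE, a kinetochore kinesin whose symbol the rule does not take in, did not pass (-0.56, adjusted p = 0.14). It passed without DMSO replicate 1, with a smaller fall (-0.22, adjusted p = 0.043). AURKB, BIRC5, CIT and CENPE were named after their values were seen.

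Markers of the cell cycle were counted beside the mitotic kinesins. Of 12 G2 and M phase markers 3 were higher and 3 lower (median 0.06), beside 24.2% of all genes called. Without DMSO replicate 1 there were 6 higher and 4 lower, beside 27.8% and 27.4% of all genes. Without erianin replicate 1 or 2 there were 2 higher and 1 lower, beside 777 of 11683 and 745 of 11705 genes called in either direction. CCNB1, the cyclin B1 gene, had 360.0, 345 and 331 CPM with erianin against 91.9, 119.5 and 131 CPM with DMSO (1.60 ± 0.15 SE, adjusted p = 0.0013). CDC20, an activator of the anaphase-promoting complex, rose by 1.15 ± 0.16 SE (adjusted p = 0.0044), and the topoisomerase gene TOP2A changed by -1.09 ± 0.13 SE (adjusted p = 0.0028), a fall. Of 12 S phase markers 8 were lower and 4 did not pass, beside 12.3% of all genes lower. Without DMSO replicate 1 all 12 were lower, beside 27.4% of all genes. Leaving out erianin replicate 1 or 2 gave 3 lower, beside 348 of 11683 and 338 of 11705 genes. Leaving out erianin replicate 3 gave 5 lower, beside 581 of 11683 genes. On log2(TPM + 1) limma-trend called 0 of 12, beside 2.27% of all genes called lower. At an unadjusted p of 0.05 in that fit 4 of 12 were lower, beside 680 of all 11550 genes. The ribonucleotide reductase subunit RRM2 had 131, 129 and 109 CPM with erianin against 246, 228 and 247 CPM with DMSO (-0.96 ± 0.11 SE). The GINS helicase subunit GINS2 had a log2 fold change of -0.85 ± 0.10 SE, and the MCM helicase subunit MCM5 of -1.05 ± 0.13 SE. Their part in the motor gene results was not tested.

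Of the transport kinesins 3 of 13 passed, KIF21B, KIF3B and KIF3C, a share close to the 24.2% of all genes. KIF21B (chr1:200969390-201023700, minus strand), a kinesin-4 of neurons and lymphocytes that limits microtubule growth, had 181, 181 and 201 CPM with erianin, against 309, 321 and 304 CPM with DMSO. The groups stood well apart and DMSO replicate 1 lay between the other DMSO libraries. The fall was -0.73 ± 0.10 SE (adjusted p = 0.0035) with it and -0.72 without it, and the call was lost only on the TPM scales (adjusted p = 0.18 on both). There few genes were called lower, 2.27% of all on log2(TPM + 1). Its relative KIF21A had 33.3, 33.7 and 31.1 CPM with erianin and 44.7, 33.4 and 32.6 CPM with DMSO and did not pass (-0.17, adjusted p = 0.42, and -0.00 without DMSO replicate 1). The KIF21B to KIF21A ratio was 5.44, 5.38 and 6.47 with erianin and 6.92, 9.59 and 9.35 with DMSO, lower in every erianin library (log2 difference -0.57, exact permutation p = 0.1).

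Of the kinesin-2 motors, which carry cargo along cilia and organelles in the cytoplasm, KIF3B and KIF3C rose. KIF3B (chr20:32277664-32335011, plus strand) had 60.8, 59.6 and 57.7 CPM with erianin, against 42.7, 36.6 and 32.9 CPM with DMSO, a rise of 0.67 ± 0.12 SE (adjusted p = 0.0100) with no overlap between groups. Its call was lost without erianin replicate 1 (adjusted p = 0.059) or 2. KIF3C (chr2:25926596-25982749, minus strand), which pairs with KIF3A in place of KIF3B, was near the detection limit at 1.15, 0.722 and 1.49 CPM with erianin and 0.329, 0.555 and 0.265 CPM with DMSO, from 156 counts in all, and rose by 1.54 ± 0.40 SE (adjusted p = 0.030). That call was lost without DMSO replicate 3 or any 1 erianin library, on the log2(TPM + 1) scale and with the replicate block (adjusted p = 0.054). KIF3A, the common partner, had 8.49, 8.84 and 7.86 CPM with erianin and 8.80, 5.21 and 5.21 CPM with DMSO. DMSO replicate 1 was as high as the erianin libraries, and the gene passed only without that library (0.70, adjusted p = 0.00011) and in 5 other alternatives.

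Of the kinesin-1 heavy chains, which move vesicles and mitochondria with the kinesin light chains, KIF5B had 107, 109 and 103 CPM with erianin and 132, 93.5 and 94.0 CPM with DMSO. DMSO replicate 1 was above and the other DMSO libraries below every erianin library (-0.00 ± 0.15 SE with all libraries, 0.20 with an adjusted p of 0.012 without DMSO replicate 1). KIF5C, best known from neurons, had 44.8, 44.1 and 42.6 CPM with erianin and 41.6, 26.1 and 23.8 CPM with DMSO, so that every erianin library was higher. It passed only without DMSO replicate 1 (0.52 and adjusted p = 0.11 with it, 0.83 and adjusted p = 5.7e-09 without it) and in 6 other alternatives. Within a library there were 0.417, 0.404 and 0.414 KIF5C counts per KIF5B count with erianin and 0.315, 0.279 and 0.253 with DMSO, higher in every erianin library (log2 difference 0.55, exact permutation p = 0.1). KIF5A had 42 counts in all, 9, 10 and 15 with erianin and 4, 2 and 2 with DMSO. It was tested only in some of the fits that left out a library and in the fit with no filter other than 1 count. Without DMSO replicate 1 it passed, higher with erianin. The kinesin-3 motor KIF1C had 101, 104 and 118 CPM with erianin and 106, 113 and 121 CPM with DMSO. KIF1B, a kinesin-3 that carries mitochondria and synaptic vesicle precursors, had 11.1, 11.6 and 11.6 CPM with erianin and 13.6, 11.3 and 10.9 CPM with DMSO. Both overlapped between groups and did not pass, with log2 fold changes of -0.08 ± 0.11 SE for KIF1C and -0.06 ± 0.13 SE for KIF1B, the second 0.06 without DMSO replicate 1. KIF16B, which moves early endosomes, had 5.33, 4.59 and 4.49 CPM with erianin and 7.62, 5.24 and 5.65 CPM with DMSO, and KIF17, a kinesin-2 of dendrites and cilia, 0.737, 0.780 and 0.572 CPM with erianin and 1.71, 1.02 and 0.706 CPM with DMSO. The ranges of both overlapped, and KIF16B (-0.36, adjusted p = 0.20), KIF17 (-0.70, adjusted p = 0.20), KIF13B (-0.17, adjusted p = 0.26) and KIFC2 (0.40, adjusted p = 0.23) did not pass. Without DMSO replicate 1 KIF13B passed (-0.18, adjusted p = 0.045), and KIF16B (-0.17), KIF17 (-0.29) and KIFC2 (0.20) did not. Of 12 kinesin partner genes tested 1 was lower and 11 did not pass. The mitochondrial adaptor TRAK2 (0.50, adjusted p = 0.17) passed without DMSO replicate 1 (0.85, adjusted p = 4.0e-08). The scaffold MAPK8IP1 did not pass (0.38, adjusted p = 0.19).

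With all 6 libraries KIF24 had the largest called fall of the motor genes. KIF24 (chr9:34252381-34311371, minus strand), a kinesin-13 relative that works with CP110 at the mother centriole to hold back cilium formation in cycling cells, had 32.6, 31.7 and 31.3 CPM with erianin, against 72.9, 61.1 and 56.3 CPM with DMSO. Each erianin library was far below each DMSO library, the fall was -0.99 ± 0.12 SE (adjusted p = 0.0032), and the call was kept in all 20 alternatives. KIF26B, a kinesin without motor activity, was low, at 0.410, 0.404 and 0.229 CPM with erianin and 0.558, 0.801 and 0.706 CPM with DMSO, and missed the threshold (-0.98 ± 0.33 SE, adjusted p = 0.069). It passed without DMSO replicate 1 (-1.09, adjusted p = 0.027), a larger fall than that of KIF24 there (-0.87). KIF7, the Hedgehog regulator of the ciliary tip, had 2.79, 2.86 and 3.57 CPM with erianin and 2.43, 4.31 and 4.18 CPM with DMSO. KIF9, a kinesin of motile cilia, had 9.34, 10.8 and 9.75 CPM with erianin and 7.33, 9.03 and 7.53 CPM with DMSO. Neither passed (-0.25 and 0.32, adjusted p = 0.51 and 0.13), nor did KIF27 (-0.26, adjusted p = 0.42), whose fold change was -0.11 without DMSO replicate 1. KIF7 passed without DMSO replicate 1 (-0.45, adjusted p = 0.038).

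Among the dynein genes a light chain and an intermediate chain rose beside a heavy chain that did not pass. DYNLL1 (LC8, chr12:120469850-120498493, plus strand), a light chain that joins pairs of many partner proteins besides serving dynein, had 186, 174 and 184 CPM with erianin, against 64.3, 97.3 and 95.4 CPM with DMSO. The lowest erianin library was far above the highest DMSO library. The rise was 1.08 ± 0.17 SE (2.12-fold, adjusted p = 0.0059) with DMSO replicate 1, the lowest library, and 0.93 without it (adjusted p = 1.0e-11). It was called in all 20 alternatives. Its near relative DYNLL2 had 192, 194 and 190.3 CPM with erianin and 149, 163 and 172 CPM with DMSO, higher in every erianin library. It did not pass with all libraries (0.25, adjusted p = 0.10) and passed without DMSO replicate 1 (0.21, adjusted p = 0.0045) and in 4 other alternatives. There were 0.968, 0.895 and 0.970 DYNLL1 counts per DYNLL2 count with erianin and 0.431, 0.597 and 0.555 with DMSO, higher in every erianin library (log2 difference 0.85, exact permutation p = 0.1).

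DYNC1I2 (chr2:171687409-171748420, plus strand), the intermediate chain that binds dynactin and is used outside neurons, had 21.7, 23.4 and 20.4 CPM with erianin, against 16.9, 13.4 and 12.8 CPM with DMSO. Every erianin library was higher (0.60 ± 0.14 SE, adjusted p = 0.023; 0.75 without DMSO replicate 1), and the call was lost when any other library was left out (adjusted p at most 0.10). DYNC1H1, the heavy chain that holds the motor domain, had 845, 866 and 898 CPM with erianin and 919.5, 931 and 880.1 CPM with DMSO, overlapping ranges with a log2 fold change of -0.07 ± 0.09 SE (adjusted p = 0.64). With offsets for GC content and length its sign turned, to 0.23 in all 6 libraries (adjusted p = 0.083) and to 0.17 without DMSO replicate 1 (adjusted p = 0.00020). The light intermediate chains, which bind cargo adaptors, did not pass, with log2 fold changes of -0.05 ± 0.10 SE for DYNC1LI1 and -0.10 ± 0.11 SE for DYNC1LI2. The DYNC1LI1 to DYNC1LI2 ratio was 0.700, 0.698 and 0.691 with erianin and 0.644, 0.700 and 0.690 with DMSO. DYNLRB1 (roadblock) had 86.4, 90.4 and 97.4 CPM with erianin and 170.5, 117 and 114 CPM with DMSO, lower in every erianin library, and narrowly missed the threshold (-0.55 ± 0.17 SE, adjusted p = 0.054). It passed without DMSO replicate 1 (-0.33, adjusted p = 0.00021). Of the Tctex light chains DYNLT1 had 85.4, 86.0 and 77.2 CPM with erianin and 52.7, 77.6 and 79.4 CPM with DMSO, and DYNLT3 had 14.5, 13.2 and 12.0 CPM with erianin and 11.9, 11.3 and 12.4 CPM with DMSO. Both overlapped between groups and did not pass (0.25 and 0.16, and 0.09 and 0.17 without DMSO replicate 1). Of dynein 2, the motor of retrograde ciliary transport, DYNC2LI1 did not pass with all libraries (0.22, adjusted p = 0.44) and passed without DMSO replicate 1 (0.42, adjusted p = 0.027). The heavy chain DYNC2H1 had 25 counts in all and was tested only in the fit with no filter other than 1 count. Of 26 dynactin subunits and dynein regulators tested 4 were higher and 3 lower, a share close to the 24.2% of all genes called. The adaptor NINL had 2.27, 2.196 and 1.94 CPM with erianin against 5.03, 5.82 and 4.94 CPM with DMSO (-1.30 ± 0.16 SE, adjusted p = 0.0031). NUMA1, which anchors dynein at spindle poles and the cortex, had a log2 fold change of -0.47 ± 0.09 SE (adjusted p = 0.013) and the adaptor BICD2 one of 0.43 ± 0.09 SE (adjusted p = 0.018).

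**Figure D3:**
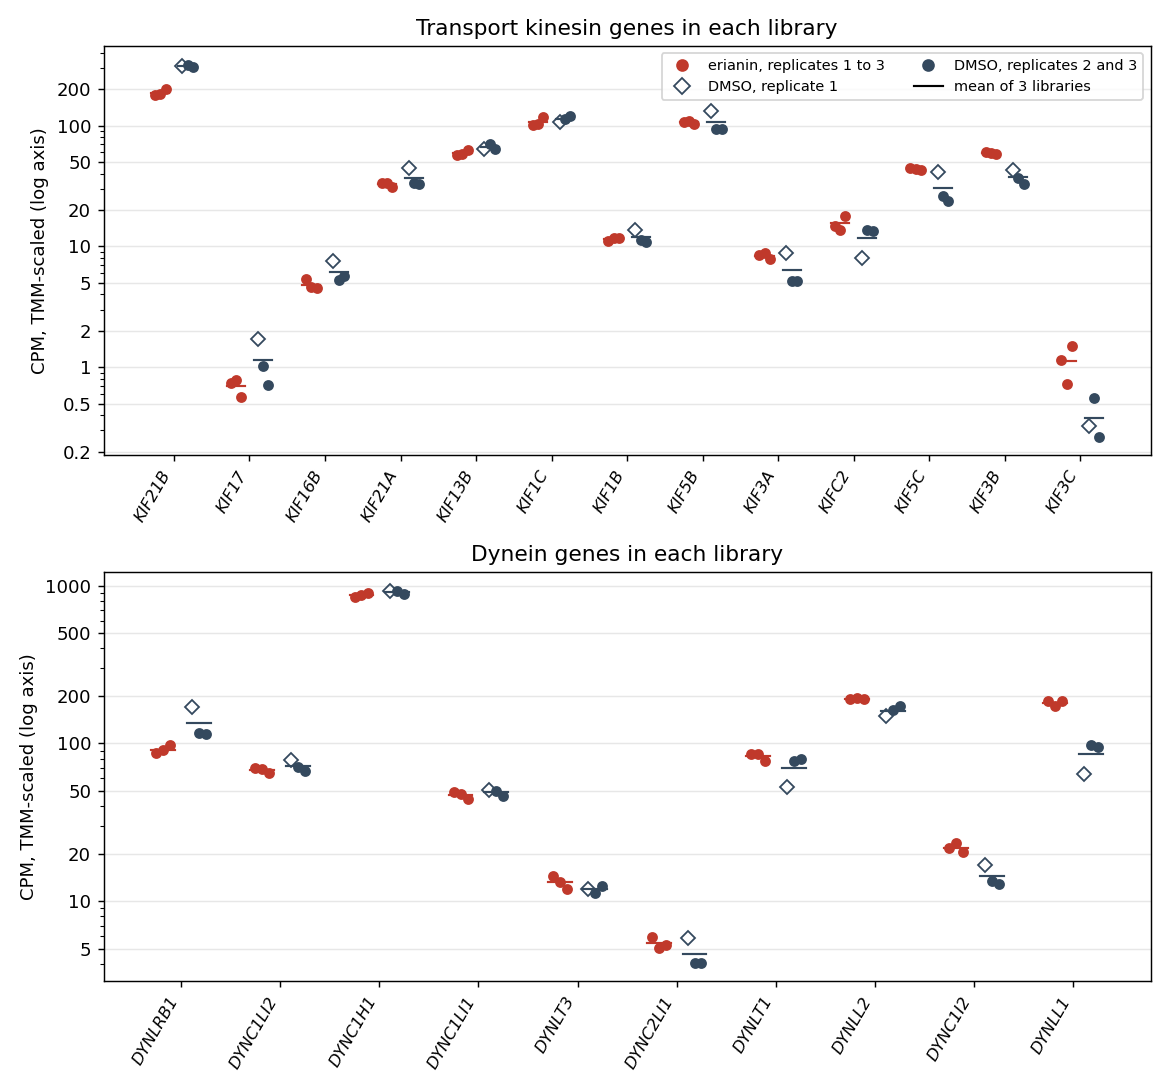
TMM-scaled CPM (log axis) of 13 transport kinesins (top) and 10 dynein genes (bottom) in each library, erianin in red and DMSO in blue with replicate 1 as an open diamond, lines at group means. KIF21B is lower and KIF3B, KIF3C, DYNC1I2 and DYNLL1 are higher in all erianin libraries than in all DMSO libraries, and for KIF5B, KIF3A and KIF5C the diamond lies apart from the other DMSO points. Of genes that did not pass with all 6 libraries, KIF5C, KIFC2 and DYNLL2 are also higher without overlap, KIFC2 barely so, and KIF13B and DYNLRB1 lower.

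Levels of different motor genes were compared per length, within a library, as shares of the sum over the 44 genes. On the deposited TPM scale the mitotic kinesins made up 51.8% of the motor sum with erianin and 59.4% with DMSO. The dynein genes made up 32.0% with erianin and 25.6% with DMSO. The length behind those TPM values was compared with GENCODE release 29 over 8794 genes with at least 100 counts in each library. For 95.2% of them it was proportional, within 0.1%, to the exon lengths added up over all transcripts of the gene. A gene with many annotated transcripts therefore gets a lower TPM. Counts per kilobase of merged exons do not add up transcripts in this way. They gave 55.6% ± 0.266 with erianin and 63.3% ± 0.113 with DMSO for the mitotic kinesins, and 31.5% ± 0.215 with erianin and 24.1% ± 0.419 with DMSO for the dynein genes (SD, n = 3 each). On this merged exon scale the libraries of the 2 groups did not overlap for either class, and DMSO replicate 1 (63.2% mitotic, 23.6% dynein) was close to the other DMSO libraries. The transport kinesins held 11.6% ± 0.200 with erianin and 10.9% ± 0.391 with DMSO, with a small gap between groups. The ciliary and other kinesins held 1.23% ± 0.0342 with erianin and 1.74% ± 0.112 with DMSO. That fall was in KIF24, with 0.801% with erianin and 1.38% with DMSO, while KIF9 was higher (0.263% with erianin, 0.182% with DMSO). Group means of KIF7, KIF27 and KIF26B, all slightly lower with erianin, were at most 0.0979%. Of the dynein genes DYNLL1, which also serves other partner proteins, changed most on this scale, with 9.46% with erianin and 3.89% with DMSO. DYNLL2 (4.36% with erianin, 3.18% with DMSO) and DYNLT1 (4.33% with erianin, 3.18% with DMSO) were also higher. DYNLRB1 was lower (5.73% with erianin, 7.25% with DMSO). These are shares of 1 sum, so a rise in any class lowers the others.

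On the merged exon scale KIFC1 led the motor genes in both groups, with 12.0% ± 0.514 of the sum with erianin and 13.4% ± 1.11 with DMSO. With erianin KIF2C (10.4%), KIF22 (9.48%), DYNLL1 (9.46%), KIF20A (6.47%), DYNLRB1 (5.73%) and KIF18B (4.63%) came next. KIF22 and DYNLL1 differed by less than their spread. With DMSO the order was KIF22 (12.1%), KIF2C (11.6%), KIF18B (7.39%), DYNLRB1 (7.25%), KIF11 (4.46%), DYNLL1 (3.89%) and KIF20A (3.79%). There KIF22 and KIF2C differed by less than their spread, and so did KIF18B and DYNLRB1, while KIFC1 was above KIF22 and KIF2C in each DMSO library. DYNLL1 also differed by less than its spread from KIF11 and from KIF20A. It lay below both in DMSO replicate 1 and above both in the other DMSO libraries, so its place in this order rests on that library. DYNC1H1, the motor gene with the highest CPM, held 3.64% with erianin and 3.30% with DMSO, since its merged exons span 36852 bases. Merged exons take in every annotated transcript of a gene, whether or not these cells use it. The order of genes therefore depends on the annotation on this scale too. KIF5B was the highest transport kinesin at 2.79% with erianin, and KIF21B at 3.43% with DMSO.

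**Figure D4:**
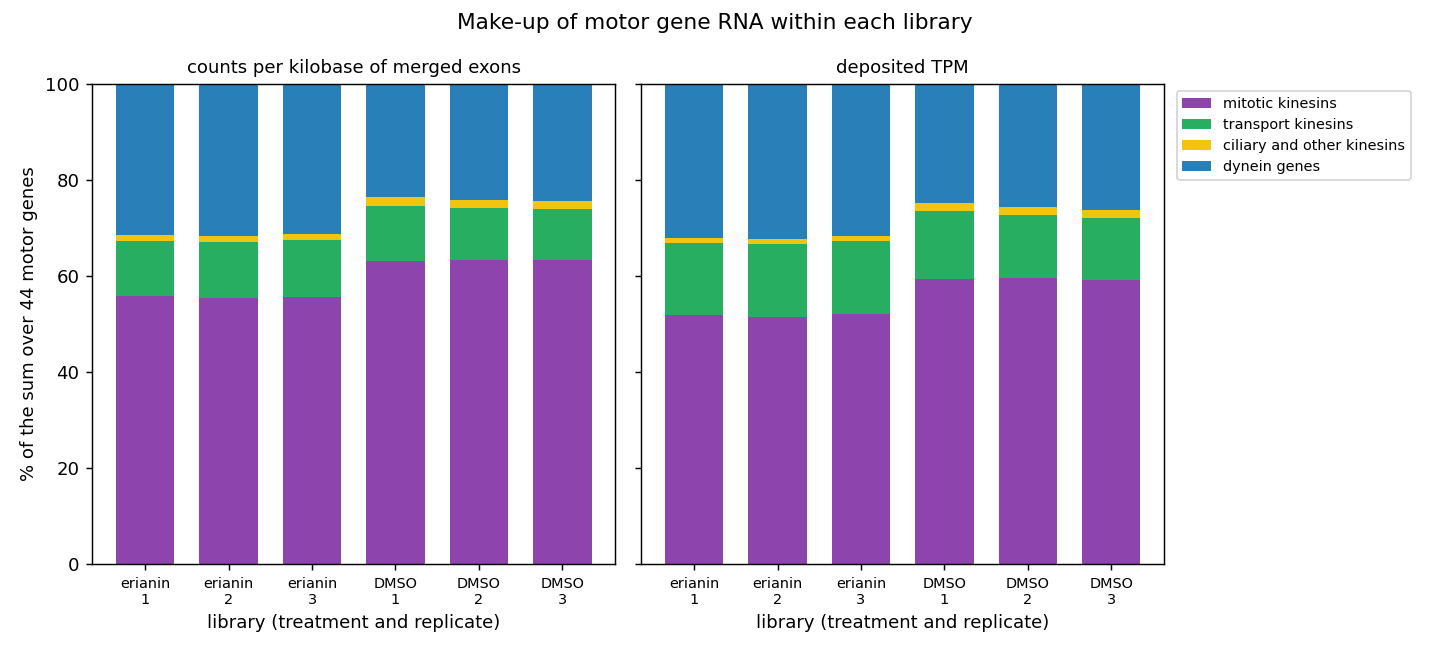
Stacked bars give, for each of the 3 erianin and 3 DMSO libraries, the percentage of the sum over 44 motor genes held by each class, from counts per kilobase of merged exons (left) and from the deposited TPM (right). The mitotic share is smaller and the dynein share larger in each erianin library than in each DMSO library on both scales. Of the dynein genes, not drawn singly, DYNLL1 changed most.

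Rows near the count rule and overlaps limit what was seen. The members with the fewest counts were KIF4B and DYNC2H1 with 25 each, and the highest below the rule was the pseudogene DYNC1I2P1 with 16. Of 28 matching symbols below the rule, 16 were listed at 0, among them DYNC2I1 and DYNC2I2, genes renamed since older annotations, whose 0 was not read as absence. Handling of strand is not given in the sources used here. Among the genes called with all 6 libraries, exons of a gene on the opposite strand cover 561 of 4312 exonic bases of KIF22, 424 of 3345 of KIFC1, 175 of 3646 of KIF2C, 143 of 6131 of KIF24 and 132 of 3958 of KIF20A. Other members overlap too, among them DYNC1LI2 (1790 of 8278), KIF9 (870 of 5850), KIFC2 (791 of 4447) and KIF7 (589 of 5001). KIF2A shares 428 of 4774 bases with a gene on the same strand. Reads there may belong to either gene.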

How the data were processed

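Groups and replicate numbers of the 3 erianin and 3 DMSO RNA-seq libraries came from the labels of each sample. A table of read counts per gene and one of TPM were deposited by the authors. Tools in the submitters' processing notes are StringTie 2.2.1, featureCounts 2.0.1, STAR 2.7.10 and fastp 0.23.2, and the build is GRCh38. Strand handling and the annotation release are not stated there. The listed genes hold 39.2% of the total that TPM is scaled to in the authors' column for DMSO replicate 1, against 63.6% to 66.7% elsewhere. Repeated symbols (61) were left out of 65807, and 7 symbols altered in the TPM table were taken from the count table. The edgeR 4.0.16 quasi-likelihood test (R 4.3.3, TMM, filterByExpr, 11550 genes, Benjamini-Hochberg over all of them, threshold 0.05) was run on the counts as deposited, and the standard error (SE) is the size of the log2 fold change divided by the square root of F. The test was also run on simulated counts with known changes. Their spread was set below the common biological coefficient of variation of these libraries (0.175), and no simulated library stood apart. That run therefore does not show how reliable the calls are in these data.

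The 20 alternatives were DESeq2 size factors, upper-quartile or total-count scaling, no filter or 1 CPM in 3 libraries, DESeq2 1.42.0, limma 3.58.1 voom with and without quality weights, limma-trend on TPM after log2 with a pseudocount of 1 or 0.1, the replicate block, offsets for GC content and the length behind the TPM (mgcv 1.9.3) with and without the block or DMSO replicate 1, and leaving out each library. Merged exon lengths, and the pairs of related motors whose count ratios were compared (11 pairs, exact permutation test over the 20 regroupings of 6 libraries, two-sided), were chosen after seeing the data; the smallest p of 0.1 becomes 0.183 when adjusted over the pairs (Benjamini-Hochberg). The members, the gene lists and the tests were chosen with earlier results of these data known. Values in every library were given for the genes with the smallest p in each class, the 3 with the highest TPM in each class and 11 genes fixed by name, and up to 3 with the smallest p in each partner list; others were named after their values were seen. Coordinates and overlaps came from GENCODE 29 (GRCh38), promoters from RefSeq (GRCh38.p14). Protein sequences were not used here. The value of 1 kinesin partner gene is not reported here.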

Additional observations from a re-analysis of the deposited data

How the results depend on the processing

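With all libraries 7 mitotic, 3 transport, 1 ciliary or other and 2 dynein genes were called, 13 motor genes in all, 27 partner genes and 2791 of all genes. Leaving out 1 library gave 1 to 9 mitotic, 1 to 8 transport, 1 to 3 ciliary or other and 1 to 5 dynein genes, 4 to 25 motor genes, 8 to 53 partner genes and 745 to 6505 of all genes, the highest counts without DMSO replicate 1 and the lowest without erianin replicate 1 or 2. Quality weights gave 8 transport, 4 ciliary or other and 6 dynein genes, 27 motor genes, 60 partner genes and 7408 of all genes. On log2(TPM + 1) and log2(TPM + 0.1) there were 2 and 2 mitotic kinesins, 16 and 15 partner genes, and 1670 and 1508 of all genes. Offsets for GC content and length gave 5 transport and 2 ciliary or other kinesins; with DMSO replicate 1 also left out they gave 8 transport, 3 ciliary or other, 5 dynein, 26 motor and 58 partner genes and 7278 of all genes, and with the replicate block 2 ciliary or other kinesins. The other counts were within 1.5 times. Total counts moved the median log2 fold change of all genes to 0.11, log2(TPM + 1) to 0.20 and log2(TPM + 0.1) to 0.28. Over 29 motor genes followed singly, 443 of the values under an alternative kept direction and side of the threshold, 60 lost the call, 35 gained it and 39 turned direction, 3 of these past the threshold: KIF5B was 0.20 with quality weights and 0.20 without DMSO replicate 1, and DYNC1H1 was 0.17 with offsets and without DMSO replicate 1. The other turned values, none of them past the threshold, belong to genes not called with all libraries. With upper-quartile scaling and total counts DYNC1H1 was 0.020 and 0.044, KIF1B 0.030 and 0.051, KIF1C 0.0059 and 0.031, and KIF5B 0.089 and 0.11. On log2(TPM + 1) and log2(TPM + 0.1) DYNC1H1 was 0.20 and 0.21, KIF18A 0.075 and 0.079, KIF1B 0.10 and 0.20, KIF1C 0.19 and 0.19, KIF5B 0.29 and 0.29, and KIF7 0.015 and 0.057. With quality weights KIF18A was 0.084 and KIF1B 0.032. With offsets, alone and with the replicate block, DYNC1H1 was 0.23 and 0.24 and KIF1B 0.17 and 0.17. With offsets and without DMSO replicate 1, KIF1B was 0.14, KIF5B 0.049 and DYNLT1 -0.060. KIF5B was 0.023 with the 1 CPM filter, 0.019 with voom and 0.018 with the replicate block. Over the libraries left out, KIF18A ran between -0.38 and 0.052, KIF1B between -0.13 and 0.061, and KIF5B between -0.091 and 0.20. The cause was not tested. Counts per kilobase of merged exons, chosen after seeing the data, gave shares of 55.6% with erianin and 63.3% with DMSO for mitotic kinesins, against 51.8% and 59.4% on the TPM scale. For transport kinesins they gave 11.6% with erianin and 10.9% with DMSO (TPM 15.1% and 13.4%), for ciliary and other kinesins 1.23% with erianin and 1.74% with DMSO (TPM 1.11% and 1.65%), and for dynein genes 31.5% with erianin and 24.1% with DMSO (TPM 32.0% and 25.6%). Libraries with the same replicate number correlated at 0.17, -0.14 and 0.23 in their deviations from the group means, and not every library correlated best with its own number, so they share only a number. The replicate block gave 2296 calls over all genes and 10 motor genes, 4 higher and 6 lower, without KIF2C, KIFC1 and KIF3C. Depth limited KIF3C, KIF26B and KIF17, with 156, 104 and 183 counts in all.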
